A study of Homo sapiens with 2 samples.

Results

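TCF7L1 binding was described at FBXW7, CHD2, TRDMT1 and MSRB3, 4 of the 20046 protein-coding genes annotated in GENCODE release 44. DNA bound by FLAG-tagged protein had been precipitated with an antibody against the tag and sequenced (ChIP-seq), and enriched regions were listed by the authors with the peak caller MACS2, which sets the reads over a position against a local background. All listed regions of both samples were collected whose summit, the point of highest enrichment, lay inside one of the genes or within 250 kb of the transcription start site (TSS) of any of its transcripts. This gave 12 regions with 13 summits of the 3663 regions and 3762 summits in the TCF7L1 sample, and 0 of the 204 regions and 224 summits in the TCF7L1-MUT sample.

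The genes were chosen by measured values of the same list: each has a region without an overlapping TCF7L1-MUT region, with its summit within 2.5 kb of a TSS of a protein-coding gene, and with one of the highest fold enrichments among such promoter regions. Regions without such an overlap are called TCF7L1-only. The strength of these 4 promoter regions and their absence from the TCF7L1-MUT list are therefore descriptions and were not tested.

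Both samples were of HCT116, an established cell line from a human colon carcinoma. In each, lentiviral shTCF7L1-2, a short hairpin RNA, lowered the endogenous TCF7L1, and 1 µg/ml doxycycline induced a FLAG-tagged protein from the plasmid pCW57.1. The protein was TCF7L1 in one sample and TCF7L1-MUT, whose DNA-binding domain is mutated, in the other, so that both samples share the knockdown, the drug and the tag. Each group had 1 sample, so no value has a replicate check, and the induced protein is exogenous. The files hold DNA regions and no transcript levels, so marker genes of the cell line could not be examined and no change in expression of the 4 genes was measured here.

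TCF7L1 belongs to the TCF/LEF family, whose members recognise a short DNA sequence through an HMG box and bring repressors or β-catenin to Wnt target genes. TCF7L1 is known mainly as a repressor. FBXW7 is the substrate receptor of an SCF ubiquitin ligase that marks MYC, cyclin E and NOTCH proteins for degradation, and it is a tumour suppressor often mutated in colon cancer. CHD2 is a chromodomain helicase that remodels nucleosomes, TRDMT1 (also called DNMT2) methylates cytosine in transfer RNAs, and MSRB3 reduces oxidised methionine in proteins.

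Sequences at or beside the summits of the 4 promoter regions are shown because the presence or absence of a TCF pattern differed among them. They are from GRCh38/hg38, written 5′ to 3′ on the strand of the gene, with annotated UTR bases left out. Capitals mark matches to the TCF core CTTTGWW, where W is A or T, or to the degenerate TCF pattern TTTKAW, where K is G or T, on either strand. A core match whose sixth letter is A contains a degenerate match, and a match on the other strand appears here as its reverse complement. The FBXW7 sequence is chr4:152352837-152352974, minus strand, and ends at the base before the TSS of FBXW7-217. The CHD2 sequence is chr15:92904139-92904339, plus strand, and the TRDMT1 sequence is chr10:17201132-17201332, minus strand. For MSRB3, the bases before the exon that holds the summit are chr12:65306759-65306862 and those after it are chr12:65307027-65307212, both plus strand. These are the parts of the MSRB3 region outside that exon. The degenerate match nearest the MSRB3 summit, TTTTAT at chr12:65306981-65306986, lies in the exon and is not shown. The stretches differ in extent, 138 bp for FBXW7 and 201 bp for CHD2 and TRDMT1, so their capitals cannot be compared in number between genes.
FBXW7: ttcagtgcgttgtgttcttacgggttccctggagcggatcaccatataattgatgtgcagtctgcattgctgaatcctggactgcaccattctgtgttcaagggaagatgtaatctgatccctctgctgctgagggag
CHD2: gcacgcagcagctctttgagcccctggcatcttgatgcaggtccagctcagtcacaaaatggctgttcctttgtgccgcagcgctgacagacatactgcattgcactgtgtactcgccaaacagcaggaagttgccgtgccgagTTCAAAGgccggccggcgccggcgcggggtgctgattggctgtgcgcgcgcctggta
TRDMT1: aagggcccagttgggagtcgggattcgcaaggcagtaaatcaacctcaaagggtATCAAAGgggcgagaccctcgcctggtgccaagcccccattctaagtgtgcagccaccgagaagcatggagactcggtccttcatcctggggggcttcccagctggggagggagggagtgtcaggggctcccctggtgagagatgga
MSRB3 before the exon: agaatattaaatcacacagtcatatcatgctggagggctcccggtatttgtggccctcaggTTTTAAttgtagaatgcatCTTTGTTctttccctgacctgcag
MSRB3 after the exon: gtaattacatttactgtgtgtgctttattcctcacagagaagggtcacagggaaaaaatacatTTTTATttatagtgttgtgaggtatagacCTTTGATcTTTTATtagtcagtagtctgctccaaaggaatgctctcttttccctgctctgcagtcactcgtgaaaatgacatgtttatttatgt

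At FBXW7 (ENSG00000109670.17, minus strand, chr4:152320544-152536092) the only TCF7L1 region listed inside the gene or within 250 kb of a TSS lay at an internal TSS. The region, chr4:152352593-152353135, was 543 bp wide with 1 summit at position 152352874. Its fold enrichment, the reads stacked at the summit over the local background with 1 added to both, was 9.42, and its −log10 q-value was 16.9. These values correspond to 28 reads over a background of 2.08 reads. The summit lay 38 bp upstream of FBXW7-217, a transcript annotated for nonsense-mediated decay, and 48 bp upstream of the protein-coding FBXW7-203. The latter encodes 627 residues, the length of the form known as FBXW7β, which is found outside the nucleus. The TSS of the canonical transcript, FBXW7-201, whose 707 residues are those of the nuclear FBXW7α, was 183218 bp upstream of the summit. That of FBXW7-202, whose 589 residues are those of the nucleolar FBXW7γ, was 29655 bp upstream. Of the 19 distinct TSSs of the gene, 3 had a summit within 2.5 kb, and all 3 lay inside the bound region. The summit itself is intronic in the longer transcripts. The next TCF7L1 summit on the chromosome was 674164 bp away, and the neighbouring genes TMEM154, TIGD4 and ARFIP1 had no summit within 2.5 kb of a TSS.

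CHD2 (ENSG00000173575.24, plus strand, chr15:92886203-93027996) stood in a group of 7 regions with 8 summits. The strongest, chr15:92903971-92904566, was 596 bp wide with 1 summit at 92904239, where the fold enrichment was 9.10 and the −log10 q-value 32.5. Here 58 reads were stacked over a background of 5.49 reads. The summit was intronic, 3915 bp downstream of the TSS of the canonical CHD2-201 (1828 residues) and 234 bp upstream of that of CHD2-207, a protein-coding transcript of 514 residues. A second region, chr15:92900074-92900460, 387 bp wide, lay over the main TSSs, with its summit 37 bp upstream of CHD2-231. Its fold enrichment was 4.11 and its −log10 q-value 4.94, from 24 reads over a background of 5.08 reads. The gene was thus bound at its canonical TSS and, with higher enrichment, in the intron downstream, and 7 of its 28 distinct TSSs had a summit within 2.5 kb.

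The strongest CHD2 region also holds the microRNA gene MIR3175, whose hairpin at chr15:92904399-92904475 starts 160 bp downstream of the summit. The annotated start nearest to this summit was the 5′ end of the hairpin and not a TSS of CHD2. The 5′ end of a hairpin is not a TSS, and none was examined for the microRNA. RefSeq gives 1 mature form, shown with its seed (bases 2 to 8) in capitals.
hsa-miR-3175: cGGGGAGAgaacgcagugacgu

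Of the other 5 regions around CHD2, 3 lay in CHASERR, the long noncoding RNA gene upstream of CHD2 that is known to restrain CHD2 expression in cis. A summit at 92819542 was 2 bp downstream of the TSS of CHASERR-211, the canonical transcript, with a fold enrichment of 4.23 from 35 reads. Farther along, chr15:92882675-92883643 was 969 bp wide and the only region around the 4 genes with more than 1 summit. One of its summits was 27 bp upstream of CHASERR-208 with a fold enrichment of 3.52, and the other was 428 bp downstream with 5.03. The region between these, with its summit at 92831922 in a CHASERR intron, had a fold enrichment of 4.62. TCF7L1 regions therefore lay at a TSS of CHASERR on both sides of an intronic region, and at a pair of TSS positions of CHD2. The remaining regions were at neighbouring protein-coding genes. The summit at 92809681 was 117 bp downstream of FAM174B-210, with a fold enrichment of 3.56. Measured from the canonical TSS of FAM174B, this summit was at −153906 bp, upstream. At RGMA, which encodes a repulsive guidance molecule of the BMP pathway, the summit at 93061954 was 1115 bp downstream of RGMA-206, with a fold enrichment of 4.24. It was 27257 bp downstream of the canonical TSS of RGMA. At this site 45.6% of the 31-base words around the summit occur more than once in the genome. At the other summits around the 4 genes this share was at most 1.17%, and it was 0% at the strongest summit of each gene.

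**Figure D1:**
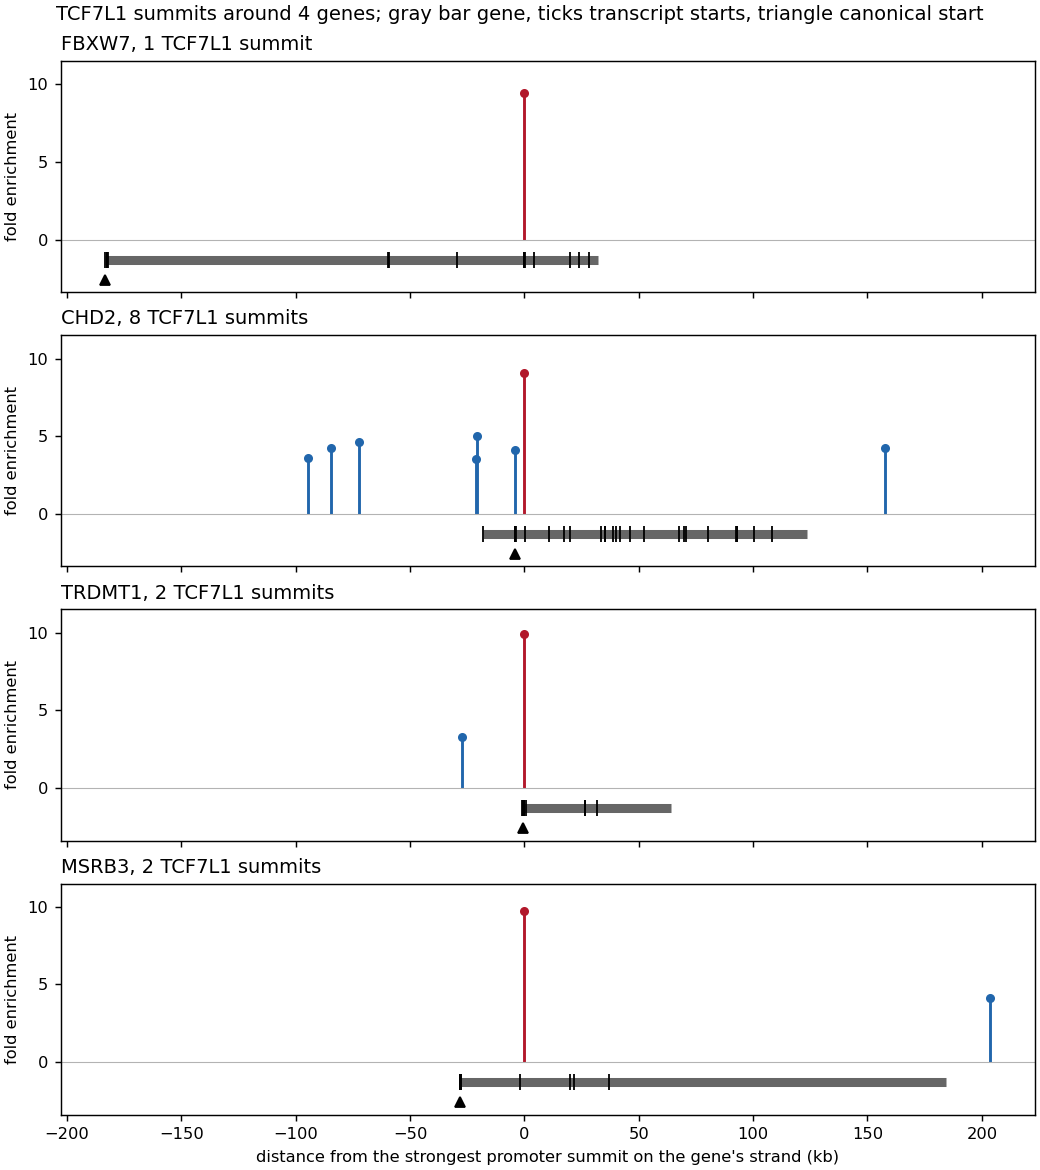
Fold enrichment of each TCF7L1 summit (vertical axis) against its distance in kb from the strongest promoter summit of the gene, measured along the gene's strand. Red marks the strongest promoter summit, blue the others, the gray bar the gene, black ticks TSSs and the triangle the canonical TSS. FBXW7 has 1 summit, 183218 bp from its canonical TSS, whereas CHD2 has 8 summits, of which 7 have fold enrichments between 3.52 and 5.03.

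To compare the promoter of TRDMT1 (ENSG00000107614.22, minus strand, chr10:17137336-17202054) with these genes, its transcripts were examined in the same way. The region, chr10:17200985-17201505, was 521 bp wide with 1 summit at 17201232. Its fold enrichment of 9.89 and −log10 q-value of 34.1 were the highest of the 4 genes, from 57 reads over a background of 4.87 reads. The summit was intronic, 196 bp downstream of TRDMT1-209, which has no defined coding sequence, and 440 bp downstream of the canonical TRDMT1-203 (391 residues). TRDMT1 was the gene of the 4 with most of its TSSs near a summit: 7 of 9 distinct TSSs, belonging to 9 of 12 transcripts, had the summit within 2.5 kb. These TSSs lie close together, and only 1, that of TRDMT1-209, was inside the region. The canonical TSS was outside it. A second summit at 17228385 lay beside VIM, the divergent neighbour that encodes the intermediate filament vimentin, a protein of mesenchymal cells. It was 130 bp upstream of VIM-204 and 144 bp downstream of the canonical VIM start, in a region 779 bp wide. Its fold enrichment of 3.27 and −log10 q-value of 2.13, from 19 reads over 5.12, were the lowest of all 13 summits. CUBN and ST8SIA6, the other protein-coding neighbours, had no summit within 2.5 kb of a TSS.

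At MSRB3 (ENSG00000174099.12, plus strand, chr12:65278643-65491430) the bound site was farther from a TSS than at the other genes. The region, chr12:65306759-65307212, was 454 bp wide with 1 summit at 65306978, where the fold enrichment was 9.74 and the −log10 q-value 21.2, from 35 reads over a background of 2.70 reads. Its summit lay in an exon, chr12:65306863-65307026, that is 5′ UTR in MSRB3-206, MSRB3-213 and MSRB3-214. The nearest TSS, 1873 bp upstream, belongs to MSRB3-215, a retained-intron transcript with no coding sequence. The canonical TSS of MSRB3-201 (185 residues) was 28295 bp upstream, and the nearest TSS of any protein-coding transcript, that of MSRB3-203, was 19897 bp downstream. The coding sequence annotated for MSRB3-203 is not a whole number of codons (116.3 residues). Only 1 of the 15 distinct TSSs had a summit within 2.5 kb, so the classification of this site as a promoter rests on 1 noncoding transcript. The other summit, at 65510699, was in an intron of the antisense gene MSRB3-AS1 with a fold enrichment of 4.12. The neighbours LEMD3 and WIF1, a secreted Wnt inhibitor, had no summit within 2.5 kb of a TSS, and HMGA2 began 313761 bp from the second summit.

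**Figure D2:**
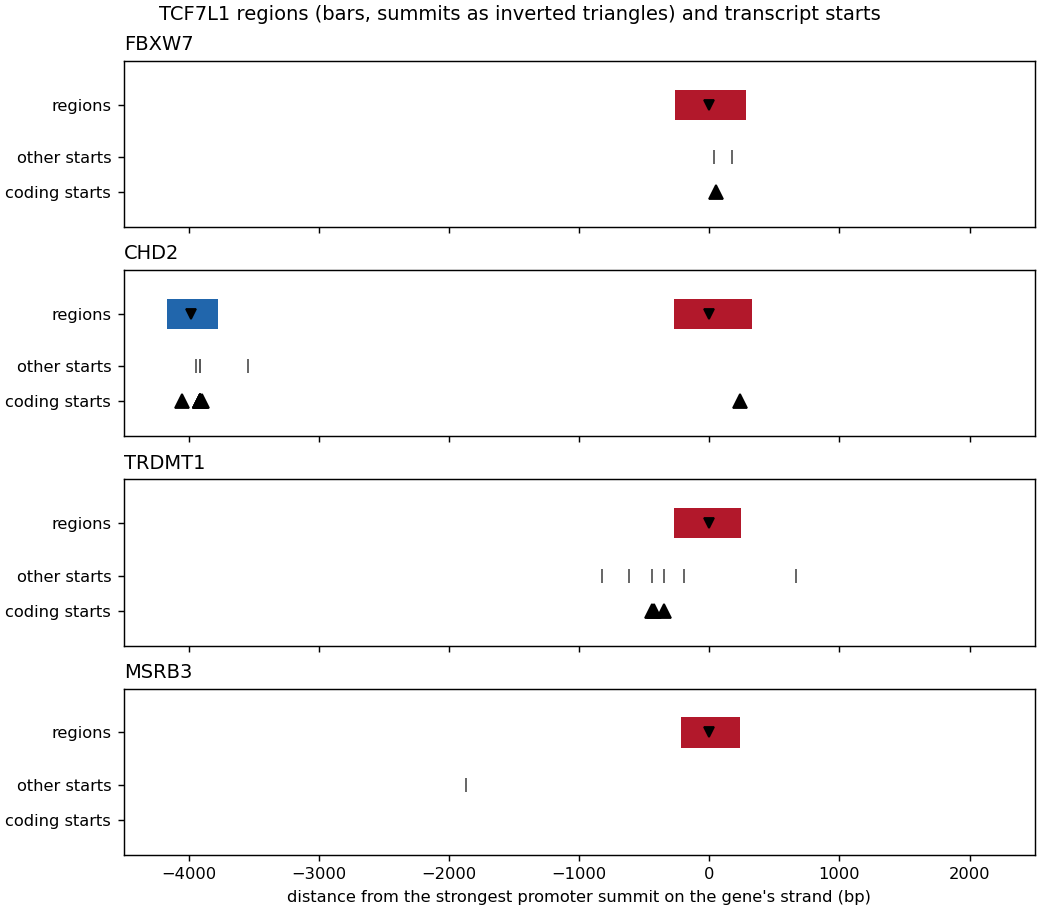
TCF7L1 regions (bars, with summits as inverted triangles) and TSSs of protein-coding (triangles) and other transcripts (ticks) against distance in bp from the strongest summit on the gene's strand. The FBXW7 region covers 3 TSSs, the TRDMT1 and CHD2 regions 1 each and the MSRB3 region none, and the second CHD2 region (blue) covers the main TSSs of that gene.

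To place the 4 genes among others, the same counts were made for every protein-coding gene, of which 963 (4.80%) had a TCF7L1-only summit within 2.5 kb of a TSS. The canonical TSS had no such summit in 2 of the 4 genes, FBXW7 and MSRB3, and in 27.1% of the 963. Only MSRB3, 1 of the 4, had its summit near none of its protein-coding transcripts, against 11.4% of the 963. Counted by region, 3 of the 4 promoter regions by which the genes were chosen, those of FBXW7, CHD2 and MSRB3, lay more than 2.5 kb from any canonical TSS of a protein-coding gene, as did 30.4% of all 918 TCF7L1-only promoter regions. With 4 genes these counts describe the genes and give no measure of difference.

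The number of regions ranged from 1 at FBXW7 to 7 at CHD2. Each count includes the promoter region by which the gene was chosen, so every one of the 4 genes had at least 1 region by selection. At least 2 regions were found around 3 of the 4 genes, around 15.2% of all protein-coding genes and around 36.8% of the 8276 genes with at least 1 region. The 7 regions around CHD2 were reached by 88 genes (0.439% of all genes and 1.06% of those with at least 1 region), which include the 13 genes of the mitochondrial sequence and genes that share their regions because they are neighbours. The span searched was 626.2 kb for CHD2 and 509.7 kb in the median of all genes, and the largest of the 4 spans, 711.7 kb for FBXW7, held the fewest regions. A TCF7L1-MUT region was near 1.69% of all genes and near 0 of these 4.

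**Figure D3:**
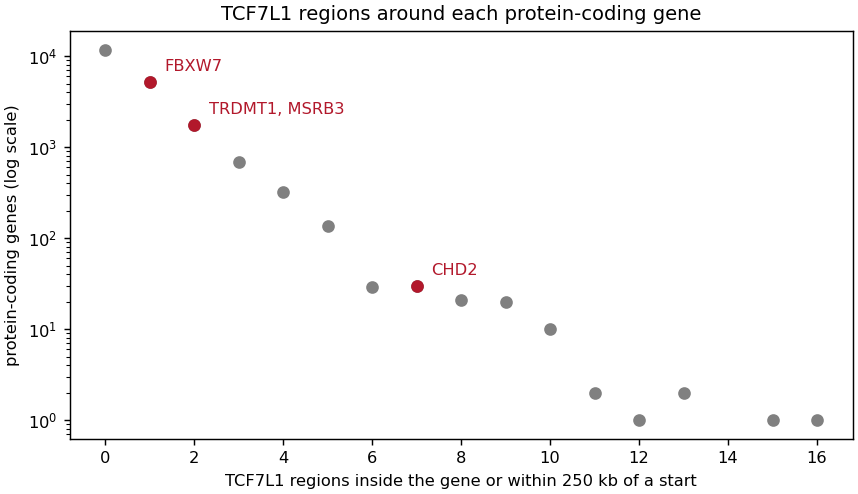
Number of protein-coding genes (log scale) against the number of TCF7L1 regions inside the gene or within 250 kb of a TSS. Red points hold the named genes: FBXW7 with 1 region, TRDMT1 and MSRB3 with 2 each and CHD2 with 7, a number reached by 0.439% of genes.

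Reads and background behind the fold enrichments were then compared. CHD2 and TRDMT1 had 58 and 57 reads over backgrounds of 5.49 and 4.87, whereas MSRB3 and FBXW7 had 35 and 28 reads over 2.70 and 2.08. Nearly equal fold enrichments therefore came from read numbers that differed between the genes. The −log10 q-values of 32.5 and 34.1 for CHD2 and TRDMT1 were likewise above the 21.2 and 16.9 for MSRB3 and FBXW7. The median of the 918 TCF7L1-only promoter regions was 20 reads over 3.63, with median fold enrichment 4.60, −log10 q-value 5.04 and width 417 bp. All 4 regions were wider than that median, and none was among the 33 with several summits. Exact Poisson 95% intervals of the reads gave fold enrichments of 6.37 to 13.5 for FBXW7, 6.94 to 11.7 for CHD2, 7.53 to 12.8 for TRDMT1 and 6.86 to 13.4 for MSRB3. They cover counting error of the summit reads only, with the background held fixed. They do not allow for the choice of these regions by high fold enrichment. The order of the 4 genes was not resolved by these reads.

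Ranked by fold enrichment among the 918 regions, TRDMT1, MSRB3, FBXW7 and CHD2 held places 2 to 5. Just above them was SEMA3A, a secreted guidance cue, with 10.9 (interval 7.87 to 14.8). Just below was MCC, a gene named for mutation in colorectal cancer, with 9.06 (interval 7.16 to 11.3) and, from 76 reads, a −log10 q-value of 42.3. By −log10 q-value the places were 6 for TRDMT1, 8 for CHD2, 22 for MSRB3 and 44 for FBXW7. By fold enrichment among all 3663 TCF7L1 regions, promoter or not, they were 54 for TRDMT1, 58 for MSRB3, 66 for FBXW7 and 76 for CHD2.

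**Figure D4:**
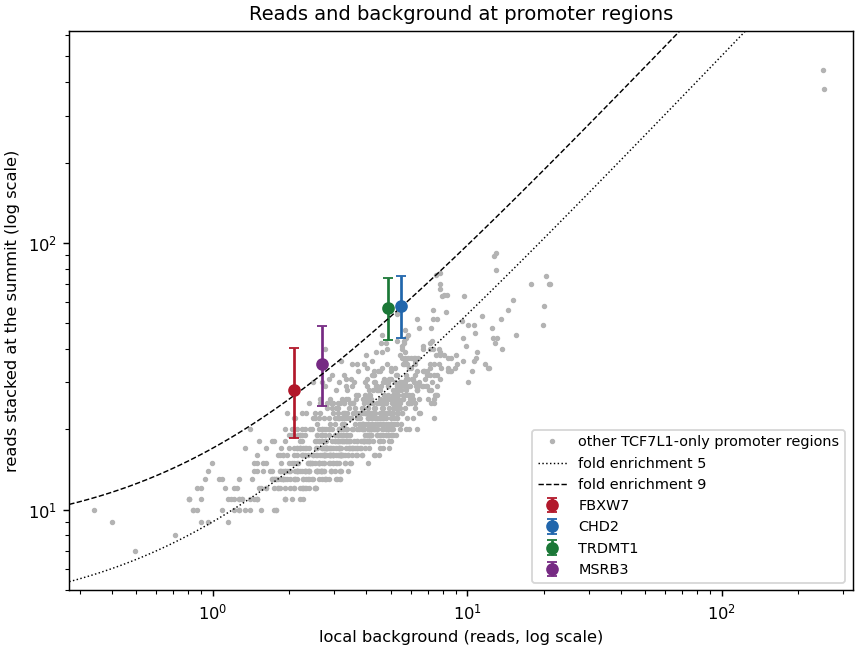
Reads stacked at the summit against local background (both in reads, log scales) for TCF7L1-only promoter regions, with exact Poisson 95% intervals for the 4 genes and lines of fold enrichment 5 and 9. CHD2 and TRDMT1 lie at 58 and 57 reads and MSRB3 and FBXW7 at 35 and 28, all on or above the upper line.

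To determine which sequence patterns lay near the summits, windows of 201 bp were searched on both strands. The TCF core was found near the strongest summit of 2 of the 4 genes: CTTTGAA, 47 bp downstream of the CHD2 summit, and CTTTGAT, 43 bp upstream of the TRDMT1 summit. It was present in 23.9% (Wilson 95% interval 21.2 to 26.7) of TCF7L1-only promoter windows and in 5.81% of windows at the canonical TSSs of 20033 protein-coding genes. In the MSRB3 region the core occurred on both sides of the exon, 136 bp upstream of the summit (CTTTGTT) and 144 bp downstream (CTTTGAT), outside the window. The degenerate pattern occurred 5.5 bp from the MSRB3 summit, measured to its centre, and so in 3 of the 4 windows, beside 48.4% of the TCF7L1-only promoter windows and 18.1% of the windows at canonical TSSs. FBXW7 had neither in its window. Its whole 543-bp region held no core, which was nearest 402 bp downstream of the summit, and 4 degenerate matches. The shares above are for windows of 201 bp. None is given here for whole regions, so the whole-region matches of MSRB3 and FBXW7 have no background beside them. The second CHD2 region, at the main TSSs, also held a core match, CTTTGAT, 55 bp downstream of its summit.

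**Figure D5:**
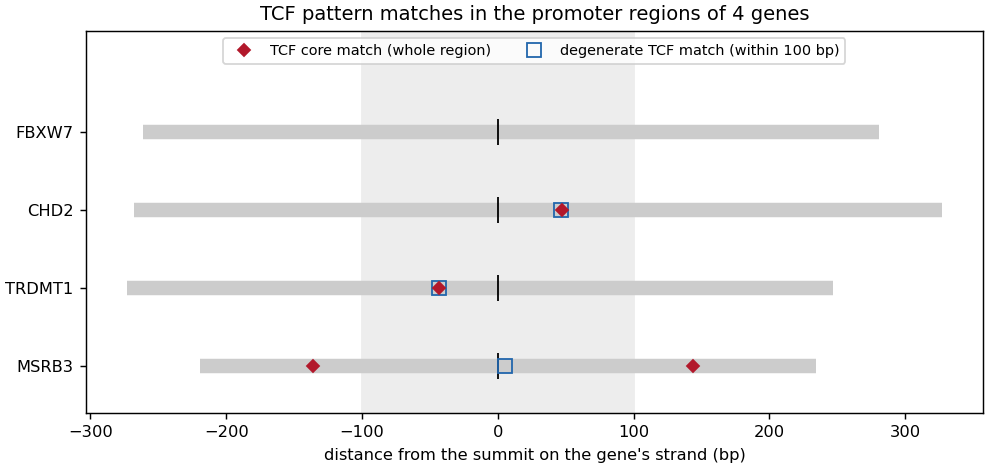
Matches to the TCF core (red diamonds, whole region) and to the degenerate TCF pattern (blue squares, within 100 bp) against distance in bp from the summit on the gene's strand. Gray bars are the regions, and the shaded band is the window searched. The core is at 47 bp for CHD2, −43 bp for TRDMT1, −136 and 144 bp for MSRB3 and absent from the FBXW7 region.

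No other pattern searched was present at the strongest summit of any of the 4 genes. These were the forkhead pattern TRTTTAC (R is A or G), found in 6.75% of TCF7L1-only promoter windows, the AP-1 pattern TGASTCA (S is C or G) in 4.25%, the GATA pattern WGATAR in 22.7%, the SP/KLF pattern GGGCGG in 26.8% and the ETS pattern CCGGAAGT in 0.654%. In the windows at canonical TSSs the shares were 2.08% for the forkhead, 2.13% for the AP-1, 10.0% for the GATA, 53.7% for the SP/KLF and 5.08% for the ETS pattern. Around the genes, GGGCGG occurred in the windows of 3 summits, all in CHASERR, with 3 matches at the summit with the higher fold enrichment of the 2-summit region. Whole regions were not searched for these other patterns. The MIR3175 hairpin, in the strongest CHD2 region but outside its summit window, contains GGGCGG. The CHASERR windows at 92882988 and 92883443 were 84.6% and 76.1% GC. The strongest summits of the 4 genes split by GC content: the windows of CHD2 and TRDMT1 were 61.2% and 60.7% GC and those of FBXW7 and MSRB3 48.3% and 49.8%, either side of the median of 54.2%. CHD2 had 15 CpG dinucleotides, TRDMT1 6, and FBXW7 and MSRB3 4 each, beside a median of 8. The CpG count over that expected from the C and G content did not follow this split. It was 0.798 at CHD2, 0.333 at TRDMT1, 0.342 at FBXW7 and 0.332 at MSRB3, beside a median of 0.597. At the CHASERR summit farther upstream, at 92819542, no pattern was found.

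TCF7L1-MUT had no region around any of the 4 genes. The nearest TCF7L1-MUT summit was 36881092 bp from that of FBXW7 and 24869438 bp from that of TRDMT1, and chromosomes 12 and 15 had 0 TCF7L1-MUT regions. At the TCF7L1 sample's own backgrounds, the lowest −log10 p-value in the TCF7L1-MUT list would have been reached with 12 reads at FBXW7, 14 at MSRB3, 19 at TRDMT1 and 20 at CHD2, or fold enrichments of 4.22, 4.06, 3.41 and 3.24. Binding weaker than this could not be seen in a list of regions, and the depth of the TCF7L1-MUT library at these sites was not analysed here.

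Genes that work with the 4 were examined from lists of SCF subunits and F-box relatives of FBXW7, known FBXW7 substrates, CHD remodellers, cytosine methyltransferases of DNA and RNA, and methionine sulfoxide reductases with the thioredoxin system. Of 61 listed genes, which include none of the 4, 3 (4.92%) had a TCF7L1-only summit within 2.5 kb of a TSS, near the 4.80% of all protein-coding genes. MCL1, an anti-apoptotic FBXW7 substrate, was 1 of 16 substrates, with a fold enrichment of 5.84 from 34 reads, 928 bp downstream of MCL1-203 and 1061 bp downstream of its canonical TSS. CHD9 was 1 of 9 CHD remodellers, with 4.55 from 14 reads, 19 bp downstream of CHD9-215 and 153479 bp from its canonical TSS. NSUN3, which methylates a mitochondrial transfer RNA, was 1 of 11 methyltransferases, with 3.72 from 13 reads, 326 bp upstream of NSUN3-205. None of the 16 SCF and F-box genes and none of the 9 genes of the reductase and thioredoxin list had one.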

How the data were processed

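ChIP-seq regions of 2 HCT116 samples were used, grouped by the genotype in their labels. According to the submitters' processing notes, reads were mapped to GRCh38/hg38 with BWA (0.7.12) and regions were called with MACS2 (2.1.0), for each sample on its own. The threshold, an input library and the treatment of duplicate reads are not given in the sources used here. The deposited lists give fold enrichment as a ratio, −log10 p-values and −log10 q-values, a score (a scaled −log10 q-value, not used) and the summit's offset. The deposited summit lists repeat all 3762 and 224 positions and −log10 q-values.

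The 4 genes and the gene lists were chosen with earlier results of these data known. A region was represented by its summit with the highest −log10 q-value, and was called TCF7L1-only if it overlapped no TCF7L1-MUT region by 1 bp. Genes and TSSs came from GENCODE release 44, and positions are 1-based. Every annotated transcript start was counted as a TSS, also those of retained-intron transcripts and of transcripts with incomplete coding sequences. Counts of TSSs therefore depend on the annotation. Reads and background were solved from fold enrichment and p-value under a Poisson model with a pseudocount of 1, within 0.001 in −log10 p for 100% of TCF7L1 regions. They are in reads of this library, which limit the precision of each fold enrichment. Words of 31 bases were counted over 194 reference sequences. Named genes were the 4 genes, the neighbours of each summit, listed genes with a summit at a TSS, and the regions ranked beside the 4. The solver and pattern search were tested on simulated data. No p-value was computed. Python 3.11.15, pandas 2.3.3 and SciPy 1.17.1 were used.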

Additional observations from a re-analysis of the deposited data

How the results depend on the processing

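Of 57 values recomputed under alternatives, 35 stayed within the limits set for a stable value, 19 moved and 3 changed sign. These limits were wide. Protein-coding genes with a TCF7L1-only summit at a TSS, 963 as reported and 672 from the 5′ end of the gene only, counted as stable. So did the listed genes, 3 as reported and 2 at a q-value of at most 0.001. The 12 regions around the 4 genes became 5 when only regions inside the genes were counted, and 5 at a fold enrichment of at least 5, while no alternative gave a TCF7L1-MUT region. Measured from the 5′ end of the gene, the summits lay 18036 bp (CHD2), 183218 bp (FBXW7), 28335 bp (MSRB3) and 822 bp (TRDMT1) downstream. With protein-coding transcripts only, the MSRB3 summit was at −19897 bp, upstream. Ranked by −log10 q-value the places were 8 for CHD2, 44 for FBXW7, 22 for MSRB3 and 6 for TRDMT1, and by reads 19, 204, 94 and 21. With a promoter distance of 1 kb MSRB3 had no rank, since it was then not a promoter region. The listed genes with a summit at a TSS numbered 5 (8.20%) at 5 kb, beside 1122 (5.60%) of all protein-coding genes, and 1 (1.64%) at a fold enrichment of at least 5, beside 379 (1.89%). Of 20046 genes, those with at least 2 regions numbered 1184 at 100 kb, 6424 at 500 kb, 303 inside the gene only and 980 at a fold enrichment of at least 5. CHD2 kept 7 regions at 100 kb and at 500 kb. It had 2 inside the gene only and 2 at a fold enrichment of at least 5. FBXW7, TRDMT1 and MSRB3 had 1 each under these last settings. No paired analysis was possible because there was only 1 library in either group, and for the same reason no replicate could be left out. The files give regions and no read depth, so differences below the listing threshold could not be examined.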
